A study of Mus musculus with 8 samples.

Results

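The Ikaros family comprises 5 zinc finger transcription factors, encoded by Ikzf1 (Ikaros), Ikzf2 (Helios), Ikzf3 (Aiolos), Ikzf4 (Eos) and Ikzf5 (Pegasus). These genes were taken by symbol, and all 5 were found among the 23361 genes of the expression table and among the 10467 genes that were tested. RNA was sequenced from induced regulatory T cells (iTreg), made from naive CD4+ T cells of wild-type Foxp3-RFP reporter mice, in which a red fluorescent protein reports Foxp3. The cultures of both groups received anti-CD3/CD28 beads, IL-2 and TGF-β at 2 ng/ml, and viable Foxp3-RFP+ cells were then sorted by surface neuropilin-1. There were 4 libraries of Nrp-1+ iTreg and 4 of Nrp-1- iTreg, each labelled as a biological replicate with a number from 1 to 4. For the time, one label says day 5 and another says that culture lasted 3 days. The study's methods place the sort on day 3. The labels give IL-2 at 50 U/ml and the study's methods give it as a mass per volume, which may be the same dose in another unit. Both groups are cells made in culture, and no source used here says that the replicates came from separate mice, so p-values measure the spread between these libraries.

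Ikaros family proteins bind DNA through a block of C2H2 zinc fingers near the amino terminus and pair with themselves and with each other through a pair of fingers at the carboxy terminus. They recruit chromatin complexes and act mostly, though not always, as repressors in lymphocytes. In regulatory T cells Helios is known as a factor that keeps the cells stable and Eos as a partner through which Foxp3 silences genes, whereas Aiolos is known in T cells as a repressor of Il2. Helios is also one of the proteins that the study measured together with Nrp-1 when it asked which regulatory T cells carry these markers.

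The sequences show how close the members are where they contact DNA. The stretch below codes for 2 neighbouring C2H2 fingers of the DNA-binding block and the linker between them, 147 bases and 49 residues in each member, read from GENCODE M21 transcripts on GRCm38. Capitals mark bases that differ from Ikzf1 at the same place, and each stretch lies in 1 coding exon.
Ikzf1: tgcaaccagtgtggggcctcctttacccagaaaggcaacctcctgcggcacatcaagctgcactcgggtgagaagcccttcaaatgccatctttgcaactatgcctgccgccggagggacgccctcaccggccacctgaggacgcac
Ikzf2: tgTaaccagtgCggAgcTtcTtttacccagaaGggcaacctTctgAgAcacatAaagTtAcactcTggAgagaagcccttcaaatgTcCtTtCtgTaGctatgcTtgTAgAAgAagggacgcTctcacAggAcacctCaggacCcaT
Ikzf3: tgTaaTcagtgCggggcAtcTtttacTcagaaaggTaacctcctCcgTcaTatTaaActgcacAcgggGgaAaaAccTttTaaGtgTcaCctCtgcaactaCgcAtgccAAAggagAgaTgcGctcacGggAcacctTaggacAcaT
Ikzf4: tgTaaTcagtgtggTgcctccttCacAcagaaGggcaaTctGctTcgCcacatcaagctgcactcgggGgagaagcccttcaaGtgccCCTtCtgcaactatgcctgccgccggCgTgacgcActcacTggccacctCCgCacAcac
Ikzf5: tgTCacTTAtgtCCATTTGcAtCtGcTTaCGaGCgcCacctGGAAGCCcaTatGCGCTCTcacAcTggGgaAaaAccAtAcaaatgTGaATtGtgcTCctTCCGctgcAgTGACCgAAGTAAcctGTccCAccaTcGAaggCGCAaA
Over this stretch Ikzf4 differed from Ikzf1 at 24 bases, Ikzf2 at 32 and Ikzf3 at 35, but each of these changed 2 or 3 of the 49 residues, so that 93.9% to 95.9% of residues were identical to those of Ikaros. Helios and Eos shared 98.0% of these residues. Pegasus stood apart, with 79 bases and 31 residues that differed from Ikaros and 36.7% of residues identical. Across whole transcripts the longest exact run of bases shared by any pair of members was 32, between Ikzf2 and Ikzf4.

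The stretch of Ikzf1 lies on the plus strand at chr11:11754024-11754170 and that of Ikzf2 on the minus strand at chr1:69570497-69570643. Those of Ikzf3, Ikzf4 and Ikzf5 are on the minus strand at chr11:98488856-98489002, chr10:128640145-128640291 and chr7:131392417-131392563. The annotation gives 9 transcripts for Ikzf2, 8 for Ikzf4, 7 for Ikzf5, 6 for Ikzf1 and 4 for Ikzf3, and the table holds 1 value per gene, so isoforms were not separated.

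Levels were read as FPKM, which are fragments scaled by transcript length and by the mapped fragments of the library. The sort was visible in the RNA, where Nrp1 was at 21.5 ± 0.709 against 4.95 ± 0.262 FPKM (SD, n = 4). Read counts were not used, and the steps between low FPKM values give an approximate depth of 15100000 to 23000000 fragments per library, with overlapping ranges in the groups. The share of a library's FPKM in short RNA genes ran from 1.77% to 43.9% and varied widely within both groups. Of 9 T cell markers 2 were higher (22.2%), 3 were lower (33.3%) and 4 did not pass, where 20.9% and 20.0% of all tested genes were higher and lower, and their summed level was 3041 to 3095 FPKM in Nrp-1+ iTreg and 3082 to 3251 in Nrp-1- iTreg. With quantile normalization none of these 5 markers (Cd5, Cd28, Cd3d, Cd247 and Cd3g) passed in limma, with adjusted p from 0.128 to 0.696. Their log2 fold changes were then 0.138, 0.0721, -0.154, -0.118 and -0.0631, in that order. Without it they were 0.111, 0.0868, -0.183, -0.134 and -0.109. Some markers of other cells were detected, at sums above the level of Ikzf2 for all but NK cells. B cell markers summed to at most 5.96 FPKM with Ms4a1, Pax5 and Blnk at 0 in every library, myeloid markers to at most 8.30 with S100a8 and S100a9 at 0, and NK cell markers to at most 0.142. The pair of CD8 T cell markers summed to at most 11.3 FPKM and erythroid markers to at most 8.03.

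Helios and Eos were higher and Aiolos lower in Nrp-1+ iTreg, while the intervals for Ikaros and Pegasus included 0. By limma on log2(FPKM + 1) with Benjamini-Hochberg adjustment over the 10467 genes, 3 of the 5 members passed the threshold of 0.05, 2 of them higher and 1 lower, and the same 3 did not overlap between the groups. Among all genes tested 40.9% passed, 20.9% higher and 20.0% lower, and 39.5% did not overlap, so 3 of 5 is a share that says nothing particular about the family. When GC content and length were corrected for, the split of all calls was 1834 higher and 2748 lower, which is 40.0% higher in place of 51.1%. The median log2 fold change was 0.09 over the 5 members and -0.02 over all genes. In bulk samples fewer cells that express a gene and less of its RNA per cell cannot be told apart, and this holds for each value below.

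**Figure D1:**
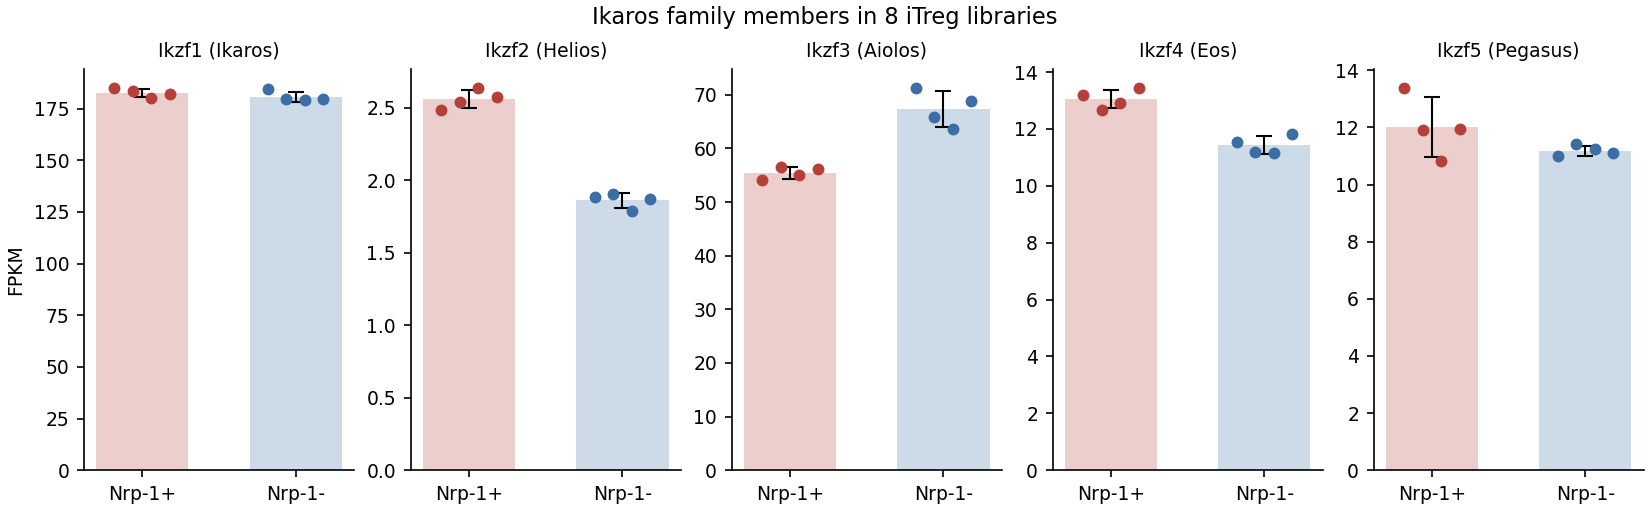
FPKM of each Ikaros family member (vertical axes, each from 0) in Nrp-1+ iTreg (red) and Nrp-1- iTreg (blue). Points are the libraries, bars the means and error bars the SD (n = 4): the groups are apart for Ikzf2, Ikzf3 and Ikzf4 and overlap for Ikzf1 and Ikzf5.

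Helios had the largest relative change and the lowest level of the family. Ikzf2 read 2.49, 2.54, 2.63 and 2.57 FPKM in Nrp-1+ iTreg replicates 1 to 4 and 1.89, 1.90, 1.79 and 1.87 FPKM in Nrp-1- iTreg replicates 1 to 4. Every Nrp-1+ library lay above every Nrp-1- library, with a gap of 0.584 FPKM between the nearest values. The means were 2.56 ± 0.0615 and 1.86 ± 0.0507 FPKM (SD, n = 4), a rise of 37.4%. Its log2 fold change was 0.31 with an SE of 0.04 and a 95% confidence interval of 0.21 to 0.42 (limma, adjusted p = 0.000853). The exact two-sided permutation test of the means gave p = 0.0286, which is the smallest p that 4 libraries against 4 allow.

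The level behind this rise was low. Ikzf2 had a higher mean FPKM than 8.61% of the tested genes, and 935 tested genes had a larger percentage increase. If its fragments came from the longest annotated transcript of 9278 bases, each library held about 251 to 560 of them, for a counting error of 4.23% to 6.31% per library. That error covers sampling alone and exceeds the observed spread between libraries of 2.40% in Nrp-1+ and 2.72% in Nrp-1- iTreg. Since log2(FPKM + 1) compresses low values, the log2 fold change of Ikzf2 was 0.44 with a pseudocount of 0.1.

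Eos moved in the same direction by less. Ikzf4 read 13.2, 12.7, 12.9 and 13.4 FPKM in Nrp-1+ iTreg and 11.6, 11.2, 11.2 and 11.8 FPKM in Nrp-1- iTreg. The groups did not overlap and were 0.850 FPKM apart at their nearest values. Means of 13.1 ± 0.330 and 11.4 ± 0.317 FPKM gave a rise of 14.2%, with a log2 fold change of 0.18, an SE of 0.03 and a 95% confidence interval of 0.11 to 0.24 (limma, adjusted p = 0.00189). The exact permutation test gave its smallest p, 0.0286. As for Helios, the change was larger than the spread between libraries, and 2094 tested genes had a larger percentage increase.

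Aiolos was the member that fell. Ikzf3 read 54.1, 56.6, 55.0 and 56.1 FPKM in Nrp-1+ iTreg and 71.2, 65.8, 63.6 and 68.9 FPKM in Nrp-1- iTreg. All 4 Nrp-1- libraries lay above the highest Nrp-1+ library, by at least 7.04 FPKM, and they were also more spread out, with an SD of 3.34 against 1.10 FPKM. The mean fell by 17.7%, from 67.4 to 55.5 FPKM, with a log2 fold change of -0.28, an SE of 0.04 and a 95% confidence interval of -0.36 to -0.19 (limma, adjusted p = 0.000526). Its exact permutation p was also 0.0286, and 729 tested genes had a larger percentage decrease. In FPKM this was the largest difference within the family, at 11.9 FPKM. It was 1.86 for Ikzf1, 1.62 for Ikzf4, 0.821 for Ikzf5 and 0.696 for Ikzf2.

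Ikaros, the founding member and a regulator of lymphocyte development, was the most abundant. Ikzf1 read 184.8, 183.4, 179.9 and 182.3 FPKM in Nrp-1+ iTreg and 184.5, 179.4, 179.3 and 179.8 FPKM in Nrp-1- iTreg. The groups overlapped, and replicate 1 of Nrp-1- iTreg stood above the other 3 libraries of its group. The means of 182.6 ± 2.08 and 180.8 ± 2.53 FPKM differed by 1.03%. The 95% confidence interval of the log2 fold change ran from -0.03 to 0.06 (limma, adjusted p = 0.562), and the exact permutation test gave p = 0.286. Ikzf1 lay above 95.2% of the tested genes.

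Pegasus, the most divergent member, also overlapped between the groups. Ikzf5 read 13.4, 11.9, 10.8 and 11.9 FPKM in Nrp-1+ iTreg and 10.99, 11.4, 11.2 and 11.1 FPKM in Nrp-1- iTreg. Both the highest and the lowest of the 8 values were Nrp-1+ libraries, and the coefficient of variation was 8.66% in that group and 1.57% in the other. The means were 12.01 ± 1.04 and 11.2 ± 0.176 FPKM, and the log2 fold change was 0.09 with a 95% confidence interval of -0.03 to 0.21 (limma, adjusted p = 0.214, exact permutation p = 0.143). Without replicate 3 of Nrp-1+ iTreg the log2 fold change was 0.14 and the adjusted p 0.051, and without replicate 1 of Nrp-1+ iTreg it was 0.04. The gene Pstk overlaps Ikzf5 on the other strand and read 10.8 to 15.7 FPKM, with a mean of 11.8 FPKM in Nrp-1+ and 14.4 FPKM in Nrp-1- iTreg, lower where Ikzf5 had the higher mean. The study's methods name a directional library kit and the labels another kit. Whether counting used strand is not stated, so reads of this pair may not have been kept apart.

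**Figure D2:**
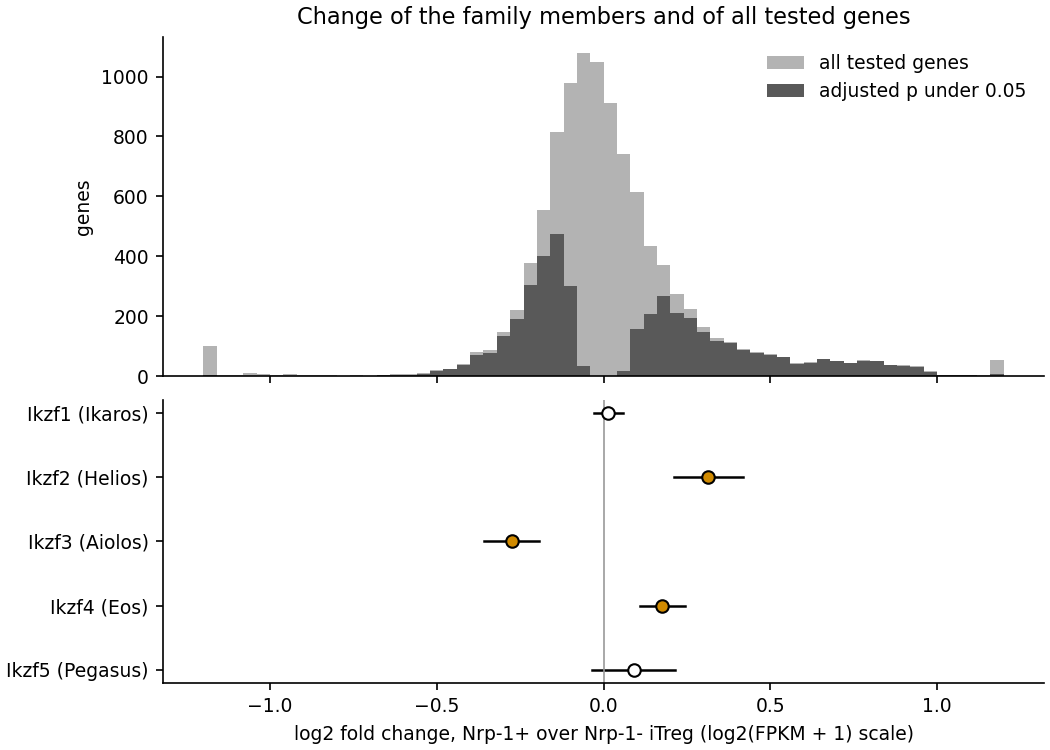
Log2 fold change of Nrp-1+ over Nrp-1- iTreg on the log2(FPKM + 1) scale (horizontal axis), as a histogram of the 10467 tested genes above and for each family member with its 95% confidence interval below. Filled points passed the adjusted p threshold, and the outermost bars collect all larger changes: Ikzf2 and Ikzf4 lie to the right of 0, Ikzf3 to the left, and the intervals of Ikzf1 and Ikzf5 cross 0.

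The order of levels was set by length-scaled FPKM and was the same in both groups at its ends. Ikzf1 came first, Ikzf3 second and Ikzf2 last in all 8 libraries. In Nrp-1+ iTreg mean Ikzf1 was 3.29 times Ikzf3, Ikzf3 was 4.25 times Ikzf4 and Ikzf5 was 4.69 times Ikzf2. In Nrp-1- iTreg the same steps were 2.68, 5.89 and 6.01. Ikzf4 and Ikzf5 were neighbours with overlapping ranges, with Ikzf4 the higher in 3 of 4 Nrp-1+ and 2 of 4 Nrp-1- libraries, and their order was not resolved.

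The summed FPKM of the 5 members was similar, 261.3 to 268.0 in Nrp-1+ iTreg and 267.1 to 280.2 in Nrp-1- iTreg, with ranges that overlapped slightly. Within that sum Aiolos made up 20.9% ± 0.469 (SD, n = 4) in Nrp-1+ and 24.7% ± 0.739 in Nrp-1- iTreg. Ikaros held 68.8% and 66.3%, Eos 4.91% and 4.20%, and Helios 0.964% and 0.684%. These shares did not overlap between groups, but they add up to a whole, so a lower share of one member raises those of the others.

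Ratios within a library do not change when the whole library is scaled by 1 factor. There were 20.9 to 22.2 FPKM of Ikzf3 for each FPKM of Ikzf2 in Nrp-1+ iTreg and 34.6 to 37.7 in Nrp-1- iTreg. This was the widest separation among the ratios between members, since it sets the member that fell against the one that rose most. Ikzf3 over Ikzf4 was 4.10 to 4.47 against 5.70 to 6.16, and Ikzf4 over Ikzf2 was 4.90 to 5.31 against 5.88 to 6.32. Ikzf1 over Ikzf3 went the other way, 3.24 to 3.41 against 2.59 to 2.82. The ratio of Ikzf4 to Ikzf5 overlapped, at 0.987 to 1.19 and 0.981 to 1.06.

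Foxp3, the factor that defines regulatory T cells and the partner of Eos, was set against both Treg-linked members in the same way. Foxp3 over Ikzf2 was 42.3 to 46.9 in Nrp-1+ iTreg and 57.1 to 59.9 in Nrp-1- iTreg, and Foxp3 over Ikzf4 was 8.63 to 9.18 and 9.25 to 9.70. Both ratios were lower in Nrp-1+ iTreg without overlap, so Helios and Eos transcripts were more abundant per Foxp3 transcript there.

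**Figure D3:**
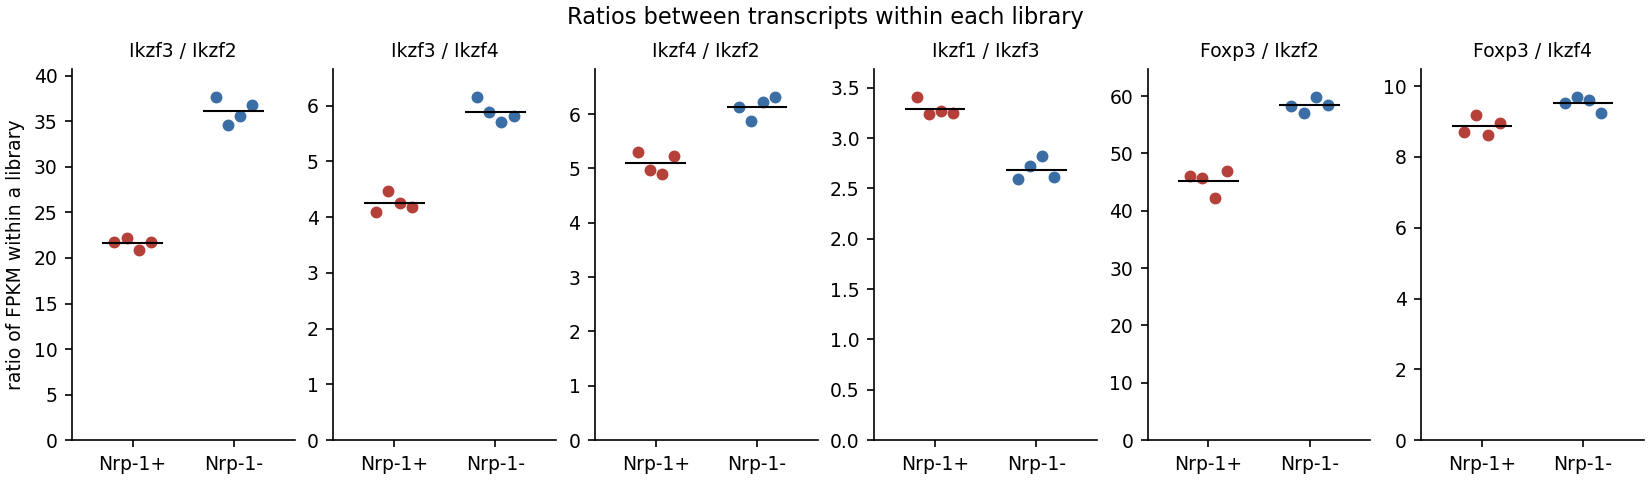
Ratio of FPKM between transcripts within each library (vertical axes, each from 0), for 6 pairs. Points are the libraries and lines the group means (n = 4): Ikzf3 over Ikzf2 lies at 20.9 to 22.2 in Nrp-1+ and 34.6 to 37.7 in Nrp-1- iTreg, and Ikzf1 over Ikzf3 is the pair shown that is higher in Nrp-1+ iTreg.

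Among the partners through which the family acts, some genes were higher, some lower and some did not pass. A list of 18 corepressor and remodelling genes held subunits of NuRD, Sin3 and CtBP complexes and the remodeller Smarca4 (Brg1), of which 17 were tested. In Nrp-1+ iTreg 8 were higher (47.1%), 3 were lower (17.6%) and 6 did not pass, with a median log2 fold change of 0.08. Among all tested genes 20.9% were higher and 20.0% lower. Rbbp7 and Rbbp4, histone-binding subunits that several chromatin complexes share, rose by 35.5% (adjusted p = 7.78e-06) and 22.7% (adjusted p = 5.77e-05) in limma. The deacetylase Hdac1 rose by 10.3% (adjusted p = 0.00279) and the scaffold Sin3a by 7.73% (adjusted p = 0.0321). The call of Hdac1 was lost with quantile normalization (adjusted p = 0.129 in limma), and that of Sin3a in 7 of 19 alternatives. The NuRD subunits Mta3 and Chd3 fell by 12.7% and fell by 10.1%, and the scaffold Sin3b fell by 8.37%. Ctbp2, a corepressor of the CtBP pair, was under the filter at no more than 0.205 FPKM, whereas Ctbp1, which is known to bind Eos, read 115.0 to 121.0 FPKM in Nrp-1+ and 107.5 to 112.3 in Nrp-1- iTreg.

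Genes for enzymes that act on Ikaros family proteins formed a short list, whose share of calls says nothing particular about them. Of 11 genes for casein kinase 2, protein phosphatase 1 and the cereblon ubiquitin ligase, 2 were higher (18.2%), 1 was lower (9.09%) and 8 did not pass, against 20.9% and 20.0% of all tested genes. The median log2 fold change was -0.02, close to that of all genes. Crbn, the receptor of the ligase that in human cells degrades Ikaros and Aiolos in the presence of thalidomide analogues, fell by 11.8% (limma, adjusted p = 0.00306). Its adaptor Ddb1 rose by 6.53% (adjusted p = 0.00840) and the phosphatase subunit Ppp1cc by 7.62% (adjusted p = 0.00222). Both calls were lost with quantile normalization (adjusted p = 0.0543 and 0.151 in limma). The log2 fold changes were then 0.0927 and 0.13, in place of 0.0903 and 0.105.

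Genes given in textbooks as bound or controlled by the family were lower or did not pass where they were tested. Of 20 listed, 10 were tested, and in Nrp-1+ iTreg 0 were higher, 6 were lower (60.0%) and 4 did not pass, with a median log2 fold change of -0.15. Of all tested genes 20.0% were lower, or 2748 of 10403 with the GC and length correction. Like the other lists, this one was chosen with earlier results of these data known. Its shares therefore describe the listed genes and test nothing about the family. Dntt, the terminal transferase of antigen receptor rearrangement, read 9.65 to 10.9 FPKM in Nrp-1+ and 12.4 to 14.4 FPKM in Nrp-1- iTreg and fell by 25.5% (limma, adjusted p = 0.000660). Il7r, the receptor chain for IL-7, fell by 22.2% (adjusted p = 6.84e-05), the Notch pathway gene Dtx1 fell by 18.8% (adjusted p = 0.00629) and the cell cycle inhibitor Cdkn1b fell by 12.2% (adjusted p = 0.00204). The chromatin organiser Satb1 fell by 11.1% and the survival gene Bcl2 fell by 8.39%. Tbx21, Notch1, Myc and Cd4 did not pass, with changes of 19.0%, 1.64%, 1.67% and -3.08%.

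Il2, the gene that Aiolos is known to repress, was listed at 0 in 6 of 8 libraries and read at most 0.215 FPKM. Ifng read at most 0.145 FPKM in any library. No difference was detectable for either at these levels. Notch3, picked out after its values were seen, was under the filter of a mean of 1 FPKM and read 0.621 to 0.723 FPKM in Nrp-1+ and 0.186 to 0.255 FPKM in Nrp-1- iTreg (adjusted p = 1.67e-05 in limma without a filter).

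Other regulatory T cell genes did not move as a block with Helios and Eos. Of 17 tested genes of a Treg list, 6 were higher (35.3%), 2 were lower (11.8%) and 9 did not pass, with a median log2 fold change of 0.07, beside 20.9% higher and 20.0% lower over all tested genes. Ebi3, a subunit of IL-35, rose by 86.3%, Nt5e (CD73) by 29.4%, Lrrc32 (GARP) by 26.4% and the actin-capping gene Capg by 25.8%. The IL-2 receptor chain Il2ra rose by 16.5% (limma, adjusted p = 0.000108). Foxp3 rose by 6.44%, from 108.8 to 115.8 FPKM (limma, adjusted p = 0.0245), a call that was lost without replicate 2 of Nrp-1+ iTreg (0.0559), without replicate 2 of Nrp-1- iTreg (0.0525) and without replicate 3 of Nrp-1- iTreg (0.0623). It was also lost with quantile normalization (0.0992) and with the GC and length correction (0.109), where the log2 fold change was 0.05 in place of 0.09. The inhibitory receptor Ctla4 fell by 10.2% and the ectonucleotidase Entpd1 fell by 8.82%. The call of Ctla4 was lost with quantile normalization (adjusted p = 0.0518 in limma), where its log2 fold change was -0.17 in place of -0.155. That of Entpd1 was lost with the replicate number as a block (adjusted p = 0.0645 in limma).

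Proliferation genes were also higher in Nrp-1+ iTreg. All 25 on the list passed as higher, where 20.9% of all tested genes did. Their median log2 fold change was 0.87, beside -0.02 over all genes. The summed level of the list was 2964 to 3047 FPKM against 1654 to 1672 FPKM. The licensing factor Mcm5 and the topoisomerase Top2a rose by 102% and 99.9%, and the reductase subunit Rrm2 and the mitotic kinase Aurkb by 97.1% and 96.6%. The 2 family members that rose did so by 37.4% and 14.2%, less than any gene of this list, and the part of proliferating cells in their change was not tested. Beside the lower Ikzf3, the CD8 chain gene Cd8b1 was also lower, at 7.07 to 8.77 against 9.28 to 11.3 FPKM, with Cd8a at no more than 0.111 FPKM in every library. The 4 erythroid markers in the table summed to 5.51 to 8.03 against 2.02 to 3.29 FPKM, nearly all of it the globin gene Hba-a1, and their part in the family's changes was not tested. The 10 myeloid markers summed to 7.15 to 8.09 against 6.61 to 8.30 FPKM, which overlapped. Of these, Itgam, a myeloid integrin gene, was tested and was higher, at a mean of 6.70 against 5.56 FPKM, while Fcgr3 at 0.286 against 0.605 and Cd68 at 0.642 against 0.898 FPKM were under the filter with lower means.

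**Figure D4:**
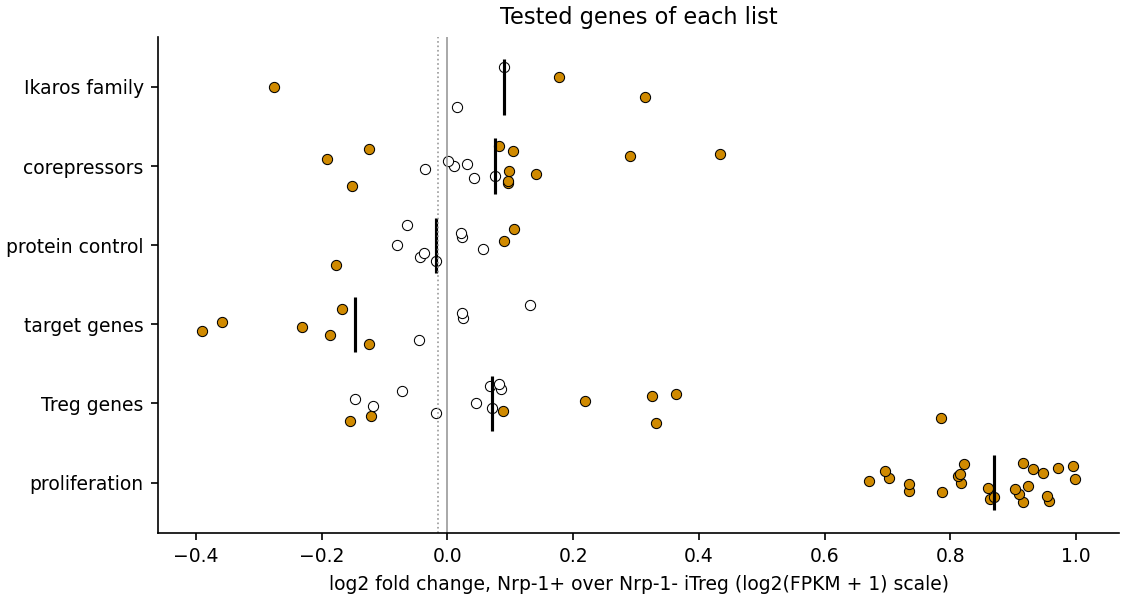
Log2 fold change of Nrp-1+ over Nrp-1- iTreg on the log2(FPKM + 1) scale (horizontal axis) for each tested gene of 6 lists (rows). Filled points passed the adjusted p threshold, black bars are list medians and the dotted line is the median of all genes: 6 of 10 target genes passed as lower, and all 25 proliferation genes lie to the right of both Ikzf2 and Ikzf4.

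The genes whose profile over the 8 libraries was nearest to each member were found by the root mean square distance between standardised log2(FPKM + 1) values, where 0 is an identical profile, over 10198 genes. Nearest to Ikzf2 were Arhgap19 at 0.0790, Lonrf3 at 0.0847 and Cdk19 at 0.0853. Nearest to Ikzf4 were Actr3b at 0.0765, Sec1 at 0.143 and Nrep at 0.146. For Ikzf3 they were Narf at 0.103, Vps13d at 0.137 and Orai2 at 0.160. These 9 genes were likewise apart between the groups, as were 39.5% of all tested genes. The distance counts that difference between groups too, so the search favours such genes. The nearest profiles to the members that overlapped were less alike, with Ttc28 at 0.272, Ksr1 at 0.400 and Sptbn1 at 0.414 for Ikzf1 and Lgalsl at 0.359, Tyw1 at 0.367 and Lcp2 at 0.395 for Ikzf5.

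The calls of Helios, Eos and Aiolos held under every alternative in which each gene was tested. Ikzf2 had log2 fold changes from 0.28 to 0.44 over 18 alternatives, with adjusted p from 4.46e-05 to 0.0127. Ikzf4 ranged from 0.15 to 0.19 and Ikzf3 from -0.31 to -0.25 over 19, with adjusted p of at most 0.00771 and 0.00603. Ikzf1 and Ikzf5 passed the threshold under none of 19.

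**Figure D5:**
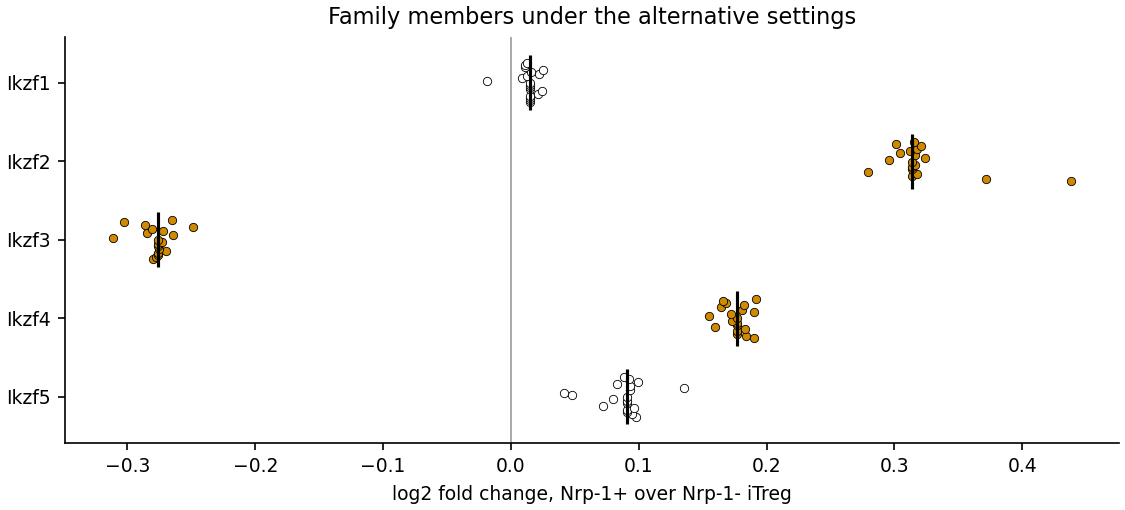
Log2 fold change of Nrp-1+ over Nrp-1- iTreg (horizontal axis) for each family member under each alternative setting. Filled points passed the adjusted p threshold and black bars are the reported values: Ikzf2 lies at 0.28 to 0.44, Ikzf4 at 0.15 to 0.19 and Ikzf3 at -0.31 to -0.25, while Ikzf1 and Ikzf5 have open points throughout.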

How the data were processed

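RNA-seq libraries of 4 Nrp-1+ iTreg and 4 Nrp-1- iTreg were compared. Reads were processed by the authors in CLC Genomics Workbench, and the deposited FPKM, which Cufflinks computed, hold 1 value for each gene symbol in each library. The labels name the build GRCm38 (mm10). The gene annotation and the strand setting of the counting are not given in the sources used here. The study's methods name a directional library kit with polyA selection, whereas the labels name another kit. All per-sample columns of the table belong to the 8 libraries (0 were left unmapped). FPKM keep no counts, so no count model was used.

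The test covered the 10467 of 23361 genes whose FPKM averaged 1 or more. They were compared on log2(FPKM + 1) with limma 3.58.1 in R 4.3.3 (lmFit, and eBayes with trend) and Benjamini-Hochberg adjustment at 0.05. The fit was tested on simulated data. Exact permutation tests over libraries, ratios and figures used Python 3.11.15 with scipy 1.17.1, numpy 2.4.6, pandas 2.3.3 and matplotlib 3.10.9. Genes and sequences came from GENCODE M21 on the same build. Fragment numbers rest on the steps between low FPKM values of single-transcript genes and are approximate, since the authors' annotation may differ. The counting errors taken from these fragment numbers cover sampling of fragments only.

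The family members and the gene lists were chosen with earlier results of these data known. Named were the 5 members, Nrp1, Foxp3, Il2, Ifng, Il2ra and Ctla4, in each list at most 4 genes each of those that rose and fell most past the threshold, and for each member the 3 genes outside short RNA genes with the nearest profile. Genes named beyond this rule (Notch3, Ctbp1, Ctbp2, Smarca4, Bcl2, Satb1, Pstk and list members that did not pass) were added after their values were seen. As alternatives, the pseudocount was set to 0.1 or 0.5, the filter was dropped or raised to 5, and libraries were rescaled by median-of-ratios size factors or by quantiles. Further fits blocked on replicate number, left out the trend, used array weights, dropped short RNA genes, corrected GC content and length with splines of 5 degrees of freedom, or left out each library in turn. nTreg were not analysed here.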

Additional observations from a re-analysis of the deposited data

Results flagged for a closer look

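Among 57 genes named here, 113 groups of 4 libraries were searched for 1 library far from the other 3, and chance flags about 1 in 20 groups, or 5.65. There were 8 such values. Within the family, replicate 1 of Nrp-1- iTreg stood apart for Ikzf1, with 184.5 FPKM and the other 3 at 179.3 to 179.8 FPKM. In the same library Ctla4 was low at 155.6 FPKM (others 161.3 to 161.7) and Cd28 high at 103.1 FPKM (others 96.7 to 97.8).

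In replicate 4 of Nrp-1+ iTreg, Hdac1 stood at 129.1 FPKM (others 131.0 to 131.3), Crbn at 31.7 FPKM (others 33.9 to 34.1) and Hba-a1 at 7.53 FPKM (others 5.48 to 5.71). Replicate 3 of Nrp-1+ iTreg was high for Rbbp4 with 81.9 FPKM (others 77.5 to 78.2), and replicate 2 of Nrp-1- iTreg was low for Ddb1 with 75.9 FPKM (others 78.9 to 79.0).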

How the results depend on the processing

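The numbers of genes called were within 1.5 times of the reported 2189 higher and 2093 lower under all 19 alternatives, with 1742 to 2299 higher and 1675 to 2748 lower. The log2 fold change of Ikzf1 turned to -0.0185 (adjusted p = 0.512, limma) with the GC and length correction, and that of Lcp2 to -0.0237 (adjusted p = 0.502, limma). Neither passed the threshold under any alternative, and the cause was not tested. Leaving out 1 library in turn gave 0.30 to 0.32 for Ikzf2, -0.30 to -0.25 for Ikzf3, 0.16 to 0.19 for Ikzf4, 0.01 to 0.02 for Ikzf1 and 0.04 to 0.14 for Ikzf5. A filter at a mean of 5 FPKM removed Ikzf2, which then has no value. Among the other named genes, Foxp3 (0.0992), Ctla4 (0.0518), Hdac1 (0.129), Sin3a (0.0572), Ppp1cc (0.151), Ddb1 (0.0543), Cd5 (0.128), Cd28 (0.31), Cd3d (0.304), Cd247 (0.344) and Cd3g (0.696) missed the threshold with quantile normalization, by limma's adjusted p. With the GC and length correction Foxp3 (0.109), Sin3a (0.114), Cd5 (0.0708) and Cd28 (0.164) missed it. The call of Sin3a was also lost without replicate 1, 2 or 3 of Nrp-1+ iTreg and replicate 3 or 4 of Nrp-1- iTreg (0.0513 to 0.0798). In all, Cd28 lost its call in 11 and Cd3g in 9 of 19 alternatives, while Lgalsl passed without replicate 3 of Nrp-1+ iTreg (0.017).

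Libraries with the same replicate number did not deviate together (correlations of -0.04 to -0.11), and the labels tie them by number alone. Whether such libraries were sorted from the same culture is not stated. With the replicate number as a block, 1931 genes were higher and 1675 lower, and 3493 of the 4282 calls were shared. Adjusted p in the replicate block fit (limma) was 0.0127 for Ikzf2, 0.00603 for Ikzf3, 0.00656 for Ikzf4, 0.618 for Ikzf1 and 0.255 for Ikzf5. Entpd1 (0.0645), Cd28 (0.0518) and Cd3g (0.12) lost their calls under the block.

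FPKM do not state their counting error, and Ikzf2 rests on the fewest fragments of the family.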
